A study of Mus musculus with 10 samples.

Results

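The genes described here encode the soluble hydrolases of the lysosome, the vacuolar proton pump that acidifies it, 4 of its membrane proteins and 2 transcription factors of the lysosomal gene program. They were chosen by name: 49 gene symbols, of 18056 genes measured in the series. The GeneName column of the array files held 47 of them, and Tfeb and Tfe3 appear there under the older names Tcfeb and Tcfe3 and were matched by accession. All 49 were measured, by 58 probes, and for each of them the probe that represents the gene was well above background on all 10 arrays. RNA came from RAW264.7 cells, an established mouse macrophage-like line, on 10 one-colour arrays, 2 to a group. One group, labelled as EtoH (ethanol) treatment, had no glucocorticoid. The others had dexamethasone (Dex), fluticasone furoate (FF) or one of the compounds VSG22 and VSGC12. All 4 compounds are glucocorticoids and were given at 100 nM, 1 hour ahead of lipopolysaccharide (LPS, a bacterial product that activates macrophages) at 1 µg/ml, with RNA collected at 16 hours. VSG22 and VSGC12 are known here by their code names only. Whether EtoH received LPS is not stated in the labels, so a difference from EtoH may include LPS itself. Nor is it stated that the 2 replicates of a group were separate cultures, so the p-values measure the spread between these arrays.

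Lysosomes digest proteins, glycans and lipids with hydrolases that work best in acid. The acid is supplied by the vacuolar ATPase, a rotary pump with a membrane sector (V0) that passes protons and a cytoplasmic sector (V1) that splits ATP. Macrophages are rich in lysosomes because they degrade what they engulf, and osteoclasts, bone-resorbing cells of the same lineage, use particular isoforms of the pump and the protease cathepsin K to dissolve bone. TFEB and TFE3 are transcription factors that bind a short palindrome, TCACGTGA, in the promoters of many lysosomal genes, and they are held in the cytoplasm while nutrient signalling is active.

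That palindrome was sought in the promoter windows of the members, because members that share it might be read as a group. RefSeq promoter windows on GRCm38.p6, from 250 bases before to 50 after the gene's start, were at hand for 39 of the 49 members (without Asah1, Atp6v0a2, Atp6v0d2, Atp6v1b2, Atp6v1c1, Atp6v1g1, Atp6v1h, Ctsb, Ctsh and Npc1). The letters TCACGTGA, which read the same on both strands, were in the windows of 7 members (17.9% of 39), against 1.12% of the 27025 genes with a window. The shorter letters CACGTG, which lie within TCACGTGA, were in 14 members (35.9%) against 8.09% of genes. Members with the 8 letters differed in direction. Of the 7, Mcoln1 and Ctsd were lower in the glucocorticoid groups, Gla was higher, and Ctsa, Atp6v0d1, Atp6v0e and Atp6v1a passed no test. For the 3 that changed, the windows around the match follow, with the 8 letters in capitals. They are given 5′ to 3′ on the gene's own strand, at chr8:3500462-3500491 (plus strand, 46 bases before the start) for Mcoln1, chr7:142387908-142387937 (minus, 99 bases before) for Ctsd and chrX:134601182-134601211 (minus, 195 bases before) for Gla, which holds a second match further upstream.
Mcoln1: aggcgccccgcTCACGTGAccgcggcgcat
Ctsd: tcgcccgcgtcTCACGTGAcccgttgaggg
Gla: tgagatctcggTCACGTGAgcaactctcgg
A full palindromic glucocorticoid response element, a strict form of the sites the glucocorticoid receptor binds, was in 0 of the 39 members. It was in 3 of the 27025 genes (0.0111%), so rare that 0 members could be foreseen, and looser or more distant sites were not sought. A match describes letters in these windows and no more.

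The first question was what glucocorticoid treatment as a class did to these genes, asked by comparing the mean of the 4 glucocorticoid groups (8 arrays) with EtoH (2 arrays). Of the 18 pump genes 9 were lower and 1 higher, of the 6 lipid-handling proteins 5 were lower, of the 12 proteases 5 were lower and 3 higher, and of the 7 glycosidases 1 was higher. Of the 49 members, 22 were lower and 5 higher (limma, Benjamini-Hochberg over all genes, adjusted p under 0.05), and 22 did not pass. The fit with slide as a replicate block gave 23 lower and 4 higher. Over all 18031 genes tested, 44.2% were called, 22.5% lower and 21.6% higher, so that 55.1% of members called is close to the background, while 44.9% of members were lower and 10.2% higher. The median log2 change was -0.19 over the members and 0.00 over all genes. Most changes were small: 2 members, Atp6v0d2 and Lipa, fell at least 2-fold and 0 rose as much. The probe signals below are log2 values relative to the 75th percentile of each array, and they can be compared between arrays but not between genes.

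Most of these calls depended on the scale set between arrays. With the array median subtracted in place of the 75th percentile, the median of all genes moved from -0.004 to 0.118 and 6 members were called. They were Atp6v0d2, Lipa and Tcirg1 (lower) and Ctsh, Ctsf and Tpp1 (higher), and the other 21 lost their call with no change of sign. Those 21 include Atp6v1f and Gla, which had been higher, so the upward shift alone does not account for every loss. As 40.1% to 44.4% of spots were well above background, the array median lies among dim spots. The part of this in the lost calls was not tested. On that scale 20.8% of all genes were called and 6.17% were lower, beside 3 of 49 members lower. The member median there was -0.07. The share of higher among all genes called was 49% in the main processing, 70.3% with the array median, 38.5% with a percentile over detected probes and 43.8% with quantile normalization. On the last 2 of these scales 27 members were lower and 4 higher, where 27.6% and 25.5% of all genes were lower.

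All 8 glucocorticoid arrays lay below both EtoH arrays for 26 of the 49 members (53.1%) and above both for 5 (10.2%), and the groups overlapped for 18. Of 17890 genes with a value on every array, 24.7% lay below and 22.9% above in this way. The 26 are the 22 members called lower and 4 that were not called. The 2 slides each held all 5 groups once and gave the same sign for all 27 members called. Since the groups did not overlap for any of these 27, that outcome was fixed and adds no support.

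**Figure D1:**
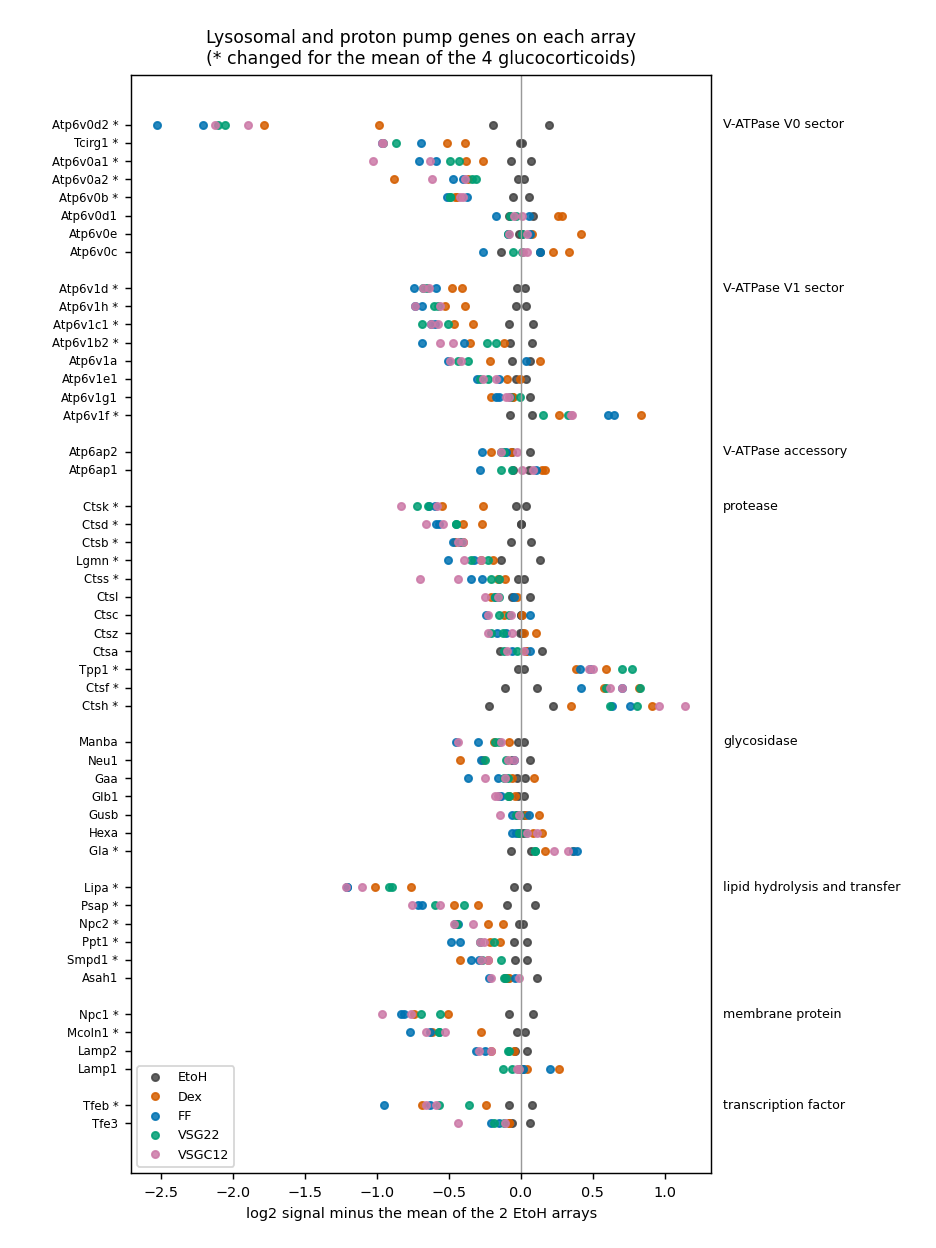
Signal of each of the 49 members on each of the 10 arrays, as log2 difference from the mean of the 2 EtoH arrays (horizontal axis), by class of protein. Points are single arrays coloured by group, and a star marks the 27 members called for the mean of the 4 glucocorticoids: Atp6v0d2 lies furthest to the left, Ctsh furthest to the right, and the glycosidases sit near 0.

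Markers of the labelled cells and of others were read beside the members. All 12 macrophage markers were measured, with 4 higher (Itgam 1.29 by its brightest probe and 0.22 and 0.40 by 2 others, Csf1r 1.18, Lyz2 0.94, Tyrobp 0.31), 4 lower (Ptprc -0.68, Aif1 -0.62, Adgre1 -0.24, Mpeg1 -0.23) and 4 not called, and their summed linear signal, in units of the array's 75th percentile, was 771 to 777 with EtoH and 869 to 956 with a glucocorticoid. Of 10 osteoclast markers 9 were measured, which include the members Atp6v0d2 and Ctsk. Besides these 2, Oscar (-0.79) and Dcstamp (-0.71) were lower, Mmp9 (0.75) was higher, and Calcr was not well above background in any group. The remaining markers, Itgb3 (1.08), Ocstamp (0.48), Acp5 (-0.25) and Nfatc1 (-0.40), did not pass. Their summed signal was 35.1 to 41.2 with EtoH, 25.8 to 28.4 with VSGC12 and 35.1 to 41.6 with the other compounds. Fewer cells of a kind and less RNA per cell cannot be told apart in such bulk samples.

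Of the other cell types, 4 of 8 T cell, 4 of 11 neutrophil and mast cell, 2 of 7 fibroblast, 1 of 6 epithelial and 0 of 6 B cell markers were well above background in a group. The summed T cell signal was 41.3 to 42.6 with EtoH and 54.4 to 130 with a glucocorticoid, and that of the neutrophil and mast cell list 56 to 71.4 and 71.1 to 165. Within these lists Cd4 (1.23), Elane (1.12) and Tpsb2 (0.57) were higher, Cd5 (-1.16) and Camp (-0.52) were lower, and Lck (0.08), Cd3e (-0.16) and S100a8 (0.13) did not pass. The T cell genes Cd3d, Cd3g and Cd8a and the neutrophil genes S100a9, Mpo, Ltf and Ngp were not well above background in any group. The part of these cell types in the members' changes was not tested.

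Among the 8 V0 genes 5 fell and 0 rose, with a median log2 change of -0.46. Those that fell were Atp6v0d2, Atp6v0b and the 3 genes of subunit a among the members. Atp6v0d2 (probe at chromosome 4, 19805367 to 19805426 on mm9), the isoform of subunit d found in osteoclasts and some macrophages, read 0.29 and -0.10 on the EtoH arrays, -1.69 and -0.89 with Dex, -2.11 and -2.43 with FF, -1.96 and -2.01 with VSG22, and -1.80 and -2.03 with VSGC12. Each glucocorticoid array was below both EtoH arrays, and the second Dex array was the highest of the 8. The change was -1.96 ± 0.22 (log2, SE, 3.88-fold lower, adjusted p = 6.3e-04), the largest of the 49, with -2.18 on slide 1 and -1.74 on slide 2. This probe lies in a patch of local signal on the second Dex array, and the part of that patch in its value was not tested. A second Atp6v0d2 probe read -2.60 and -2.72 with EtoH and between -5.36 and -4.09 with a glucocorticoid, a change of -2.14 ± 0.29. It was well above background on 2 arrays, those of a single group, through which alone it passed the filter. Its change therefore lies near the floor and is no separate support. Over the alternatives the change ran from -2.15 to -1.36 and the call was kept in all 18 that tested the gene.

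Atp6v0d1, the isoform of subunit d present in all cells, was 0.04 ± 0.08 (adjusted p = 0.74), from 5.32 and 5.49 with EtoH to between 5.23 and 5.69 with a glucocorticoid. So 1 isoform of this subunit was called and the other was not, and the difference between them was not tested.

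Subunit a, which lines the proton path, fell in all 3 isoforms among the members. Tcirg1 (chromosome 19, 3896678 to 3896810), the a3 isoform that osteoclasts use, read 6.18 and 6.17 with EtoH, 5.79 and 5.66 with Dex, 5.21 and 5.48 with FF, 5.22 and 5.31 with VSG22, and 5.21 and 5.22 with VSGC12. The change was -0.79 ± 0.08 (1.72-fold lower, adjusted p = 5.5e-04), with the Dex arrays nearest to EtoH. Atp6v0a1 (chromosome 11, 100924969 to 100925028), the a1 isoform, read 4.17 and 4.31, then 3.98 and 3.86, 3.53 and 3.65, 3.75 and 3.81, and 3.61 and 3.21 in the same order of groups. It fell by 0.56 ± 0.11 (adjusted p = 0.0069), a call lost without EtoH replicate 2 (-0.49). Atp6v0a2, the a2 isoform, fell by 0.47 ± 0.13 (adjusted p = 0.025), a call that ended when either EtoH array was left out (-0.49 without replicate 1, -0.45 without replicate 2) or when dim probes were kept. Atp6v0b, a subunit of the proteolipid ring, fell by 0.45 ± 0.06 (adjusted p = 0.0017). The other ring gene, Atp6v0c, was 0.06 ± 0.12, and the small subunit Atp6v0e was 0.04 ± 0.10.

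Among the 8 V1 genes 4 fell and 1 rose, with a median of -0.33. Atp6v1d (chromosome 12, 79943993 to 79944052), part of the central rotor, read 6.65 and 6.59 with EtoH, 6.21 and 6.14 with Dex, 5.88 and 6.03 with FF, 5.94 and 5.97 with VSG22, and 5.98 and 5.94 with VSGC12. Its change of -0.61 ± 0.06 (adjusted p = 4.7e-04) was nearly the same on slide 1 (-0.65) and slide 2 (-0.57). Atp6v1h (chromosome 1, 5123207 to 5123266), a regulatory subunit, read 3.95 and 4.02, then 3.60 and 3.46, 3.25 and 3.30, 3.38 and 3.41, and 3.42 and 3.25, a change of -0.60 ± 0.07 (adjusted p = 7.9e-04). A patch covers its probe on the second EtoH array, where it read close to the first. Atp6v1c1 (chromosome 15, 38621773 to 38621832), a peripheral subunit that joins V1 to V0, read 3.99 and 4.16, then 3.74 and 3.61, 3.45 and 3.48, 3.39 and 3.57, and 3.45 and 3.50, a change of -0.55 ± 0.08 (adjusted p = 0.0018). In these 3 genes the Dex arrays were the highest of the treated arrays.

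Atp6v1b2, the nucleotide-binding subunit B2, fell by 0.37 ± 0.10 (adjusted p = 0.025), and this call was lost without EtoH replicate 1 (-0.45), EtoH replicate 2 (-0.30) or VSG22 replicate 1 (-0.37). Atp6v1f, a rotor subunit, was the pump gene that rose, by 0.44 ± 0.14 (adjusted p = 0.04). Of 19 alternatives 12 ended that call, among them the replicate block (adjusted p = 0.055) and leaving out any 1 of the EtoH, FF, VSG22 and VSGC12 arrays (0.37 to 0.52). The stalk subunits Atp6v1e1 (-0.19 ± 0.07, adjusted p = 0.064) and Atp6v1g1 (-0.11 ± 0.07) and the accessory proteins Atp6ap1 (0.00 ± 0.10) and Atp6ap2 (-0.13 ± 0.08) did not pass.

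The catalytic subunit gene Atp6v1a gave 2 answers. The probe that represents it, brighter in the mean over the 10 arrays, was -0.28 ± 0.15 (adjusted p = 0.17). The other probe, which starts 243 bases away and was also well above background on all arrays, read 6.32 and 6.48 with EtoH and between 5.43 and 5.79 with a glucocorticoid. It was -0.77 ± 0.08 (limma over probes, adjusted p = 4.0e-04), and the mean of the 2 probes was -0.53 (adjusted p = 0.0058). The log2 ratio of the other probe to the representing one was 0.11 and 0.14 with EtoH and -0.75 to -0.13 on the 8 glucocorticoid arrays, so the 2 probes changed unequally, and which of them is brighter in the mean depends on that change.

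**Figure D2:**
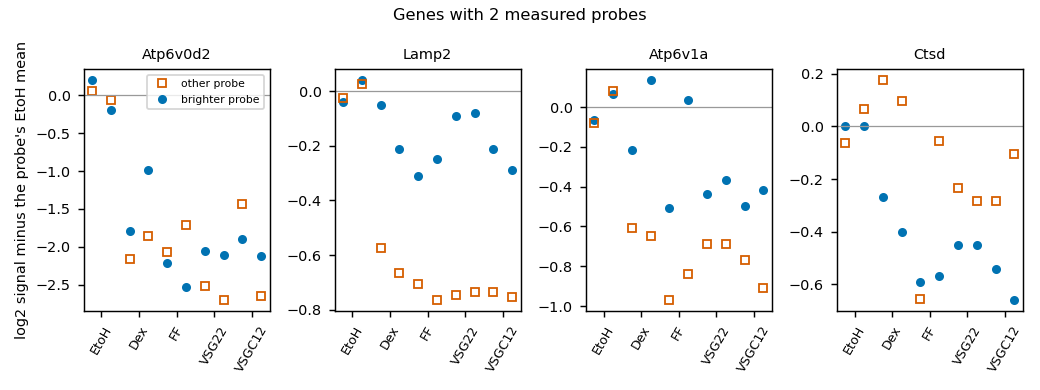
Log2 signal of both probes of 4 members on each array, minus the probe's own mean over the 2 EtoH arrays (vertical axis, a different range in each panel), by group (2 points each). For Lamp2 and Atp6v1a the open squares (the less bright probe over the 10 arrays) lie below the filled circles on every glucocorticoid array. For Ctsd most of them lie above, and for Atp6v0d2 both probes are lower than with EtoH throughout. The less bright Atp6v0d2 probe was well above background on 2 arrays only.

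Membrane proteins of the lysosome were divided. Npc1, which exports cholesterol from the lysosome, read 1.71 and 1.88 with EtoH, 1.29 and 1.05 with Dex, 0.96 and 0.98 with FF, 1.10 and 1.23 with VSG22, and 1.03 and 0.83 with VSGC12. It fell by 0.73 ± 0.10 (1.66-fold, adjusted p = 0.0013). Mcoln1 (chromosome 8, 3515110 to 3515169), the calcium channel mucolipin 1, read 5.11 and 5.05, then 4.80 and 4.46, 4.45 and 4.31, 4.51 and 4.51, and 4.55 and 4.42, a change of -0.58 ± 0.10 (adjusted p = 0.0034). No treated array of either gene reached the EtoH arrays. Lamp1, the most used marker protein of lysosomes, was 0.04 ± 0.08 (adjusted p = 0.72), from 8.39 and 8.36 with EtoH to between 8.25 and 8.64 with a glucocorticoid.

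Lamp2, a related glycoprotein whose alternative last exons give several isoforms, depended on the probe. The brighter probe was -0.19 ± 0.07 (adjusted p = 0.06). The other lies 4731 bases away, is assigned to a different transcript in the array design, and read 4.89 and 4.94 with EtoH, 4.34 and 4.25 with Dex, 4.21 and 4.15 with FF, 4.17 and 4.18 with VSG22, and 4.18 and 4.16 with VSGC12. It was -0.71 ± 0.06 (limma over probes, adjusted p = 2.0e-04). Its log2 ratio to the brighter probe was -0.09 and -0.12 with EtoH and -0.76 to -0.50 on the 8 glucocorticoid arrays, so the 2 probes changed unequally.

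Of the 6 members that handle lipids 5 fell and 0 rose, with a median of -0.33. Lipa (chromosome 19, 34567717 to 34567776), the acid lipase that frees cholesterol and fatty acids from engulfed lipoproteins, read 4.42 and 4.33 with EtoH, 3.61 and 3.36 with Dex, 3.17 and 3.17 with FF, 3.48 and 3.46 with VSG22, and 3.27 and 3.16 with VSGC12. It fell by 1.04 ± 0.08 (2.06-fold, adjusted p = 1.4e-04), by the same 1.04 on each slide, and its call was kept in all 19 alternatives (-1.12 to -0.92). Psap (chromosome 10, 59764825 to 59764884), the precursor of the saposins that present sphingolipids to their hydrolases, read 5.63 and 5.44, then 5.24 and 5.07, 4.82 and 4.85, 5.14 and 4.94, and 4.97 and 4.78, a change of -0.56 ± 0.09 (adjusted p = 0.0035). Npc2, the soluble carrier that hands cholesterol to Npc1, fell by 0.37 ± 0.06 (adjusted p = 0.0033).

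The thioesterase Ppt1 fell by 0.29 ± 0.06 (adjusted p = 0.0098) and the acid sphingomyelinase Smpd1 by 0.27 ± 0.07 (adjusted p = 0.024). Both calls were lost without EtoH replicate 2 (-0.24 and -0.31) and with no filter, and that of Smpd1 also without EtoH replicate 1 (-0.24). The acid ceramidase Asah1 was -0.11 ± 0.09 (adjusted p = 0.38).

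The 12 proteases were mixed, with 5 lower, 3 higher and a median of -0.13. Ctsk (chromosome 3, 95313165 to 95313224), the bone collagen-cleaving cathepsin K, read 1.68 and 1.61 with EtoH, 1.38 and 1.10 with Dex, 1.01 and 1.05 with FF, 0.92 and 1.00 with VSG22, and 1.06 and 0.81 with VSGC12. It fell by 0.60 ± 0.10 (1.52-fold, adjusted p = 0.003). The aspartic protease Ctsd fell by 0.49 ± 0.06 (adjusted p = 0.0012) and the cysteine protease Ctsb by 0.43 ± 0.06 (adjusted p = 0.0018). The second probe of Ctsd was -0.17 ± 0.15 (limma over probes, adjusted p = 0.39). The asparaginyl endopeptidase Lgmn, which trims other cathepsins into their mature forms, fell by 0.32 ± 0.09 (adjusted p = 0.03), and Ctss, which trims the invariant chain in antigen presentation, by 0.30 ± 0.08 (adjusted p = 0.023). The call of Lgmn was lost in 6 of 19 alternatives, among them without EtoH replicate 1 (-0.19) and without FF replicate 2, VSG22 replicate 2 or VSGC12 replicate 2 (-0.30 to -0.31). That of Ctss was lost without EtoH replicate 1 (-0.27) or 2 (-0.32), and its probe lies in a patch on the first VSGC12 array, the lowest of the 10.

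The proteases that rose were Ctsh, Ctsf and Tpp1. Ctsh (chromosome 9, 89970828 to 89970887), an aminopeptidase, read -1.36 and -1.80 with EtoH, -1.23 and -0.67 with Dex, -0.95 and -0.82 with FF, -0.77 and -0.96 with VSG22, and -0.62 and -0.44 with VSGC12, a change of 0.78 ± 0.17 (1.71-fold higher, adjusted p = 0.011). Ctsf (chromosome 19, 4860454 to 4860513), another cysteine protease, read -0.53 and -0.75, then -0.06 and 0.18, 0.06 and -0.22, 0.19 and -0.05, and 0.06 and -0.02, a change of 0.66 ± 0.12 (adjusted p = 0.0046). Tpp1 (chromosome 7, 112893532 to 112893591), which removes tripeptides from protein ends, read -0.19 and -0.15, then 0.42 and 0.21, 0.24 and 0.31, 0.60 and 0.53, and 0.33 and 0.30, a change of 0.54 ± 0.07 (adjusted p = 0.0014). All treated arrays of the 3 genes were above both EtoH arrays, with the first Dex array of Ctsh the nearest. Without EtoH replicate 2 the calls of Ctsh (0.55, adjusted p = 0.11) and Ctsf (0.55, adjusted p = 0.053) were lost, while Tpp1 kept its call in all 19 alternatives. The 4 other proteases, Ctsa (-0.02), Ctsc (-0.10), Ctsl (-0.15) and Ctsz (-0.09), did not pass.

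Of the 7 glycosidases 1 rose and 0 fell. Gla, the alpha-galactosidase that acts on globotriaosylceramide, rose by 0.26 ± 0.07 (adjusted p = 0.029). Of 19 alternatives 10 ended the call, among them without EtoH replicate 1 (0.33) or 2 (0.18), without FF replicate 1, VSG22 replicate 1 or 2, or VSGC12 replicate 2 (0.24 to 0.26), and with quantile normalization (0.18). The beta-hexosaminidase subunit Hexa (0.04 ± 0.06), the glucuronidase Gusb (-0.01 ± 0.07), the galactosidase Glb1 (-0.12 ± 0.05), the glucosidase Gaa (-0.13 ± 0.08), the sialidase Neu1 (-0.19 ± 0.09) and the mannosidase Manba (-0.24 ± 0.09) did not pass, and the lowest bound of their 95% intervals was -0.46, for Manba.

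Of the transcription factors, Tfeb (chromosome 17, 47929089 to 47929148) read -1.07 and -0.91 with EtoH, -1.23 and -1.68 with Dex, -1.62 and -1.94 with FF, -1.56 and -1.35 with VSG22, and -1.58 and -1.65 with VSGC12. It fell by 0.59 ± 0.14 (1.51-fold, adjusted p = 0.014), with all 8 treated arrays below both EtoH arrays. The call ended when either EtoH array was left out (-0.67 without replicate 1, -0.51 without replicate 2) or when dim probes were kept. Tfe3 was -0.17 ± 0.09 (adjusted p = 0.17). These are RNA levels, and the activity of both proteins is set largely by where in the cell they are.

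**Figure D3:**
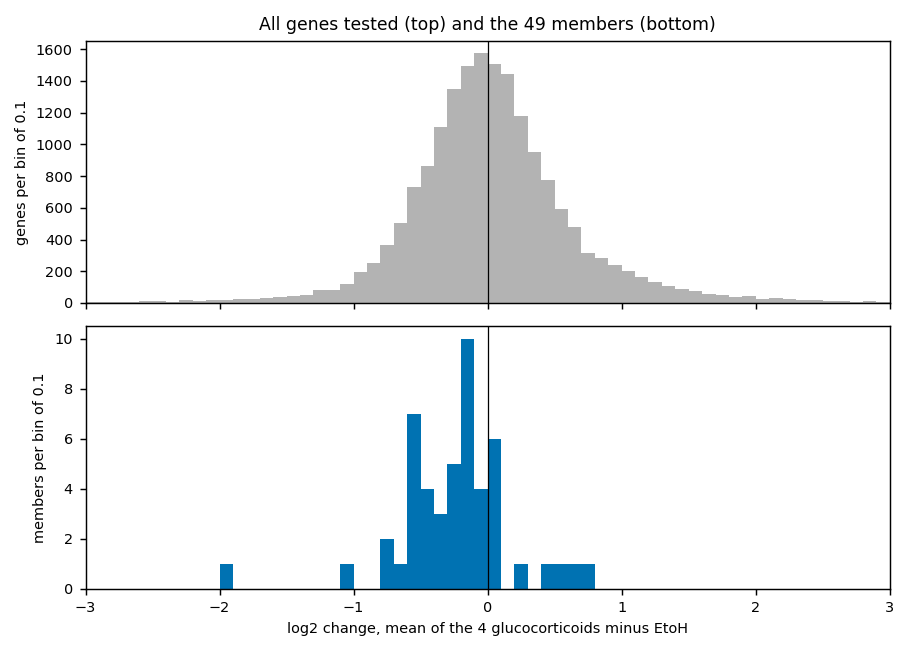
Number of genes per bin of 0.1 against log2 change for the mean of the 4 glucocorticoids minus EtoH, for all genes tested (top) and for the 49 members (bottom). All genes centre on 0, and the members centre on a median of -0.19 with 1 far to the left (Atp6v0d2, -1.96).

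Each compound was then compared with EtoH. These 4 comparisons share the same 2 EtoH arrays and are not independent of each other. With Dex 15 members were lower and 2 higher (15.7% and 16.5% of all genes, 32.2% in either direction). With FF 22 were lower and 5 higher (19.1% and 17.9%, 37.1% in all). With VSG22 15 were lower and 3 higher (14.5% and 16.1%, 30.6% in all), and with VSGC12 19 were lower and 3 higher (18.3% and 17.2%, 35.5% in all). The share of members that were lower (30.6%, 44.9%, 30.6% and 38.8% in that order) was above the background each time, and the share higher (4.08%, 10.2%, 6.12% and 6.12%) was below it. Member medians were -0.14 with Dex, -0.27 with FF, -0.17 with VSG22 and -0.25 with VSGC12, and the medians of all genes were -0.01 each.

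With slide as a replicate block 18 members were called with Dex, 26 with FF, 17 with VSG22 and 25 with VSGC12, and 0 in each pair of compounds. Subtracting the array median left 1 with Dex, 2 with FF, 2 with VSG22 and 3 with VSGC12, and with no filter on dim probes there were 2, 10, 9 and 13. For the mean of the glucocorticoids the share of all genes called fell too, from 44.2% to 20.8% and 13.6% in these settings. It was 46.2% with the replicate block. For single compounds that share is given in the main processing only, so their counts in the alternatives have no background beside them. Whether the drops are particular to the members or to a compound was not tested. The counts with Dex moved most when an array was left out: against 17 members, there were 8 when EtoH replicate 1 was dropped, 6 for EtoH replicate 2 and 9 for Dex replicate 2. With FF 17 were called without EtoH replicate 2 or FF replicate 1, against 27, and with VSG22 11 without VSG22 replicate 1, against 18. The Dex arrays had the most spots in patches (up to 5.44% of an array) and differed most from each other over the members (SD of the difference 0.25, against 0.09 to 0.19 in the other groups). Of the members, 6 were read by a probe that a patch covers on a Dex array: Atp6v0d2, Gaa, Ctsz, Gusb, Hexa and Ctsa. The part of these patches in the Dex values was not tested.

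With all 4 compounds 13 members were lower: the pump genes Atp6v0b, Atp6v0d2, Tcirg1, Atp6v1c1, Atp6v1d and Atp6v1h, the proteases Ctsb, Ctsd and Ctsk, and Lipa, Psap, Npc1 and Mcoln1. Ctsf and Tpp1 were higher with all 4, and 20 members were called with none. The share of all genes called with all 4 or with none was not computed, so these counts have no background beside them. On the array median scale Atp6v0d2 alone was lower with all 4, and with no filter Atp6v0d2 and Lipa, and in neither case was a member higher with all 4. Psap and Ctsd were not lower with all 4 by the mean of a gene's probes. Psap was not lower with all 4 when any array was left out. Only Lipa and Atp6v1d were lower with all 4 whichever EtoH array was left out. Without EtoH replicate 1 or EtoH replicate 2 there were 5 lower and 1 higher, and 8 and 1 without VSG22 replicate 1 or Dex replicate 2. Tpp1 was the member higher with all 4 without EtoH replicate 2, VSG22 replicate 1, Dex replicate 2, FF replicate 1 or either VSGC12 array, and Ctsf without EtoH replicate 1 or FF replicate 2. Atp6v0d2 was -1.38 with Dex (95% interval -2.03 to -0.73, adjusted p = 0.011), -2.36 with FF (-3.01 to -1.71), -2.08 with VSG22 (-2.73 to -1.43) and -2.01 with VSGC12 (-2.66 to -1.36). Lipa was -0.89 with Dex (-1.13 to -0.65), -1.20 with FF (-1.44 to -0.96), -0.90 with VSG22 (-1.14 to -0.66) and -1.16 with VSGC12 (-1.40 to -0.92). Tcirg1 was -0.45 with Dex (-0.70 to -0.20), -0.83 with FF (-1.08 to -0.58), -0.91 with VSG22 (-1.16 to -0.65) and -0.96 with VSGC12 (-1.21 to -0.70). In these 3 genes the Dex value was nearest to 0, and for Tcirg1 its interval only met that of VSGC12, at -0.70.

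Ctsh was called with FF (0.70), VSG22 (0.72) and VSGC12 (1.05, 2.08-fold, adjusted p = 0.011) and was 0.63 with Dex (adjusted p = 0.066). Lamp2 (-0.28, adjusted p = 0.038) and Manba (-0.38, adjusted p = 0.044) were called with FF and not for the mean of the 4. The other members called with a single compound were Lgmn (-0.42, lower), Atp6v1f (0.63) and Gla (0.38, both higher) with FF, Atp6v0a2 with Dex (-0.62, lower) and Ctss with VSGC12 (-0.57, lower). A call with one compound and not another is not a difference between them, which the next comparison tests.

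**Figure D4:**
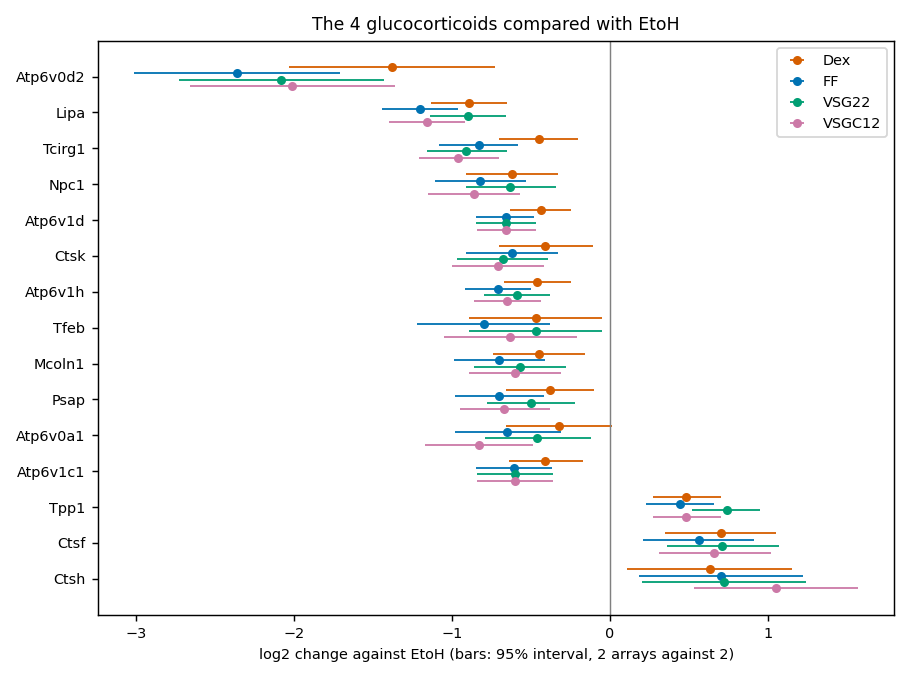
Log2 change against EtoH for each of the 4 glucocorticoids (points, 2 arrays against 2) with 95% intervals (bars) for the 15 members called with an absolute log2 change of at least 0.5. All points of the 12 lower members lie left of 0 and all points of the 3 higher members right of 0, and the Dex interval of Atp6v0a1 reaches 0.01.

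All 4 compounds were given at the same dose and time, so they were compared in all 6 pairs. No member was called in any pair by limma, nor in the F-test over the 4 groups. Of all genes 0.371% were called for FF minus Dex (0.299% lower, 0.0721% higher), 0.554% for VSG22 minus Dex (0.36% and 0.194%), 0.393% for VSGC12 minus Dex (0.332% and 0.061%), 0% for VSG22 minus FF, 0.00555% for VSGC12 minus FF, 0% for VSGC12 minus VSG22 and 0.255% in the F-test. At an unadjusted p under 0.05 there were 11, 8, 12, 5, 1 and 5 members in the pairs in that order (14.4%, 16.7%, 14.8%, 9.47%, 4.2% and 7.15% of all genes) and 10 in the F-test (13.5% of all genes), where Tcirg1 had the smallest adjusted p (0.27). The median half-width of the unadjusted 95% interval of a member's difference was 0.25 in each pair, so differences of that size were not resolved. After adjustment larger ones were not called either, such as -0.98 for Atp6v0d2 in FF minus Dex (limma, adjusted p = 0.22).

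The widest differences were those of Atp6v0d2 from Dex: -0.98 (-1.63 to -0.33, adjusted p = 0.22) for FF, -0.70 (-1.34 to -0.05, adjusted p = 0.28) for VSG22 and -0.63 (-1.28 to 0.02, adjusted p = 0.35) for VSGC12. Tcirg1 differed from Dex by -0.38 (-0.63 to -0.13) with FF, -0.46 (-0.71 to -0.20) with VSG22 and -0.51 (-0.76 to -0.25) with VSGC12, with adjusted p = 0.23, 0.12 and 0.15. Ctss was -0.39 (-0.63 to -0.15, adjusted p = 0.68) for VSGC12 minus VSG22. Atp6v0d2 was 0.35 (-0.29 to 1.00, adjusted p = 0.99) for VSGC12 minus FF. Of these intervals, which are not adjusted for the number of genes, those of Atp6v0d2 for VSGC12 minus Dex and VSGC12 minus FF include 0 and the others do not. A p above the threshold does not show that the compounds act alike. Without Dex replicate 1, Atp6v0d2 was called for FF minus Dex (-1.38, -1.91 to -0.86, adjusted p = 0.048) and for VSG22 minus Dex (-1.10, -1.62 to -0.57, adjusted p = 0.04), and Atp6v1f for VSG22 minus Dex (-0.59, -0.87 to -0.31, adjusted p = 0.038). In that setting the second Dex array stands alone, where the probe of Atp6v0d2 lies in a patch, and it is assumed to vary like the other groups.

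Other genes of the lysosome, from 7 lists drawn up beside the members, were read in the same fit for the mean of the 4 against EtoH, where 44.2% of all genes were called. Of 34 further lysosomal membrane proteins and transporters 17 fell and 6 rose, with a median of -0.34. Gpnmb, a glycoprotein of lysosome-rich cells, fell by 2.28 ± 0.08 (4.85-fold, adjusted p = 5.9e-06) and the peptide transporter Slc15a3 by 1.23 ± 0.08, while the lipid transporter Abca2 rose by 0.87 ± 0.07. The sialic acid exporter Slc17a5 has no settled direction: its brighter probe rose by 1.93 ± 0.25 (adjusted p = 0.0011) and lies in a patch on 1 array, and its other probe fell by 0.40 ± 0.10 (limma over probes, adjusted p = 0.018). Clcn7, the chloride-proton exchanger that works beside the pump, was -0.69, and its partner Ostm1 was -0.56, both called lower except with the array median subtracted. These 2 were picked after their values were seen. Subtracting the array median left 5 lower and 2 higher in the list.

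Of 34 other glycosidases, sulfatases and lipases 12 fell and 11 rose, with a median of -0.14, and 2 fell and 6 rose with the array median subtracted. Hyal1, a hyaluronidase, fell by 2.15 ± 0.15 (4.44-fold, adjusted p = 8.7e-05), and the iduronate sulfatase Ids rose by 1.08 ± 0.14 (adjusted p = 0.0014). The iduronidase Idua also has probes that disagree, as the brighter rose by 1.83 ± 0.18 (adjusted p = 3.9e-04) and the other fell by 0.33 ± 0.07 (limma over probes, adjusted p = 0.0076). Pld3, a lysosomal exonuclease, fell by 0.83 ± 0.06. Of 9 other proteases and inhibitors 3 fell and 4 rose, with a median of 0.15. The cathepsin inhibitors Cst7 and Cst3 rose by 0.72 ± 0.13 and 0.69 ± 0.12, and the inhibitor Cstb and the dipeptidase Dpp7 fell by 0.31 ± 0.08 and 0.38 ± 0.10. The calls of Cstb and Dpp7 ended when either EtoH array was left out, and that of Cst7 with normexp background correction (0.26). On the array median scale 0 of these 9 were lower and 3 higher.

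Of 9 other pump isoforms and assembly factors 2 fell and 1 rose, with a median of 0.16, where the median of the 18 pump genes above was -0.33. Vma21, needed to assemble V0, fell by 0.75 ± 0.07 (adjusted p = 2.6e-04) by its brightest probe, while its other 3 probes gave 0.41, -0.25 and -0.26. Tmem199, another assembly factor, fell by 0.19 ± 0.06 (adjusted p = 0.029), and 7 of 18 alternatives ended its call, among them leaving out any 1 of the EtoH and VSG22 arrays or FF replicate 2, while Rogdi, linked to the complex that joins V1 and V0, rose by 0.65 ± 0.09. Of 29 genes of the TFEB family and nutrient sensing at the lysosome 9 fell and 6 rose, with a median of -0.04. The small GTPase Rheb, which activates the kinase mTOR, rose by 1.00 ± 0.21 (adjusted p = 0.0083) and the mTOR inhibitor Deptor by 1.30 ± 0.41 (adjusted p = 0.039). Deptor lost its call in 10 of 19 alternatives, among them without EtoH replicate 1 (0.40) or any 1 of the 8 glucocorticoid arrays, and was 2.19 without EtoH replicate 2. Rragc and Fnip2, which act in the amino acid signal to TFEB, fell by 0.64 ± 0.11 and 0.63 ± 0.06. On the array median scale the pump list had 1 lower and 2 higher, and the nutrient sensing list had 0 lower and 5 higher, its median turning to 0.09.

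Leaving out an EtoH array moved these list counts most. Without EtoH replicate 1 and without EtoH replicate 2 the membrane list had 14 and 12 lower with 3 and 3 higher, the glycosidase list 8 and 8 lower with 8 and 8 higher, and the protease list 0 and 0 lower with 3 and 4 higher. The nutrient sensing list had 5 and 5 lower with 3 and 6 higher. Of all genes 26.4% were called without EtoH replicate 1 and 25.9% without EtoH replicate 2. Over all arrays left out in turn, the pump list ran from 1 to 3 lower and from 1 to 2 higher. With no filter on dim probes the membrane list had 15 lower and 3 higher, the glycosidase list 7 and 7, the protease list 0 and 3, the nutrient sensing list 5 and 3 and the pump list 1 and 1.

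**Figure D5:**
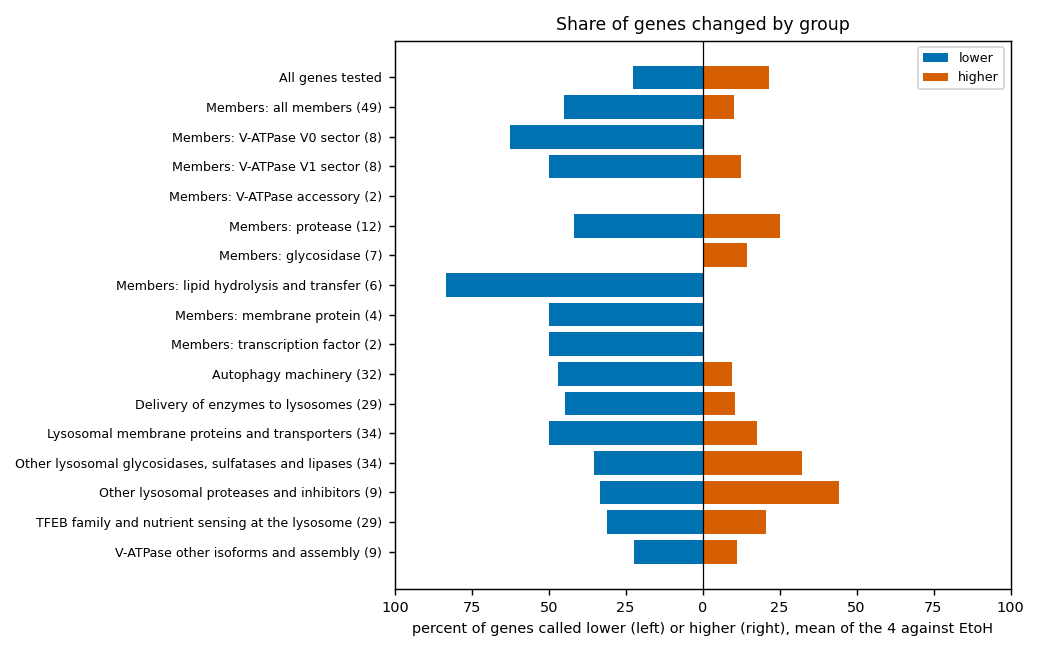
Percent of genes called lower (blue, left) and higher (orange, right) for the mean of the 4 glucocorticoids against EtoH, for all genes tested, the members by class and the 7 other lists, with the number of genes in brackets. Of all genes 22.5% were lower and 21.6% higher, and the lipid-handling members (5 of 6 lower) and V0 subunits (5 of 8 lower) have the longest bars to the left.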

How the data were processed

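RNA of 10 arrays was analysed, 2 per group. Per the file headers, the deposited files are Agilent Feature Extraction 10.7.3.1 output: a processed signal in intensity units, background-corrected on each array, and flag columns (other values). The submitters' processing notes list limma with no step named. Probe positions are on mm9 per the file headers; exons and untranslated regions are not given, as no mm9 annotation was used.

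Non-uniform and outlying spots were left out, log2 signals averaged by probe, and the 75th percentile of each array's non-control probes subtracted (315.3 to 428.5 intensity units). Of the spots, 40.1% to 44.4% were well above background, with 0 saturated; precision is limited by the number of arrays. A gene was read by its brightest probe among those well above background (over 0.5 of its spots) on every array of a group. Names came from the GRCm38.p6 RefSeq table. A patch was called where 3 or more of a spot's 24 neighbours stood well above background on that array and on no array of another group.

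All groups were fitted together with limma 3.58.1 in R 4.3.3 (lmFit, eBayes, no block, 5 residual and 1.81 prior degrees of freedom), two-sided, with Benjamini-Hochberg adjustment over all genes within a comparison, a threshold of 0.05 and 95% intervals. The fit was tested on simulated data. Replicate numbers follow the 2 slides. Correlations of same-numbered deviations between groups, taken over genes, exceeded 0.1 for 5 of the 6 pairs of glucocorticoid groups and for 0 of the 4 pairs with EtoH (-0.04 to 0.32 in all). The fit without slide is the main one, and counts with slide as a replicate block stand beside it. Members called for the mean of the 4 with an absolute log2 change of at least 0.5 were described by array, and up to 2 highest and 2 lowest called genes named from each list. The members and lists were chosen with earlier results of these data known. Alternatives were 3 other scalings, normexp background correction (offset 50), no filter on dim probes, the mean of a gene's probes, a replicate block, and leaving out probes in patches, both Dex arrays or each array in turn. The lists, the list genes named and the members called with all 4 compounds were run through these as an addition made after seeing the data.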

Additional observations from a re-analysis of the deposited data

How the results depend on the processing

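Of 27 members called for the mean of the 4 glucocorticoids, Atp6v0d2, Lipa, Tcirg1 and Tpp1 kept their call in every alternative that tested them, 21 lost it with the array median subtracted, and 0 reversed. Of the other genes named, Slc17a5 turned from 1.93 to -0.40 without probes in patches, where its other probe stands in for it. The cause was not tested. Apart from the array median, 15 of the 27 members lost no call and 12 lost it in at least 1 other alternative. With the array median 6 members were called in all (3 lower, 3 higher), and 1 with Dex, 2 with FF, 2 with VSG22 and 3 with VSGC12. With no filter on dim probes, where 36290 genes were tested, 3 members were higher and 15 lower for the mean, and 2 with Dex, 10 with FF, 9 with VSG22 and 13 with VSGC12 were called. Over all genes 44.2% were called for the mean in the main processing, 20.8% with the array median and 13.6% with no filter. For single compounds the share of all genes is not given in any alternative, so their member counts there have no background. The replicate block gave 23 lower and 4 higher and changed the calls of Atp6v1f (lost, adjusted p = 0.055) and Manba (gained, 0.049) and no others for the mean. Without probes in patches 19 of 42 members were lower and 5 higher, and without both Dex arrays 24 and 5 of 49.

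Leaving out each array in turn, the mean of the 4 called 16 to 28 members (15 to 24 lower, 1 to 5 higher), Dex 6 to 20, FF 17 to 28, VSG22 11 to 19 and VSGC12 16 to 26. The 16, and the 1 higher, came without EtoH replicate 2, where 25.9% of all genes were called. There were 3 higher without EtoH replicate 1, FF replicate 1, VSG22 replicate 1 or 2, or VSGC12 replicate 2. Pairs of compounds called 0 members, except 1 for FF minus Dex and 2 for VSG22 minus Dex, both without Dex replicate 1. The other pairs and the F-test called 0 in each alternative. All 49 members were well above background on each array.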

Other observations

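Genes that bring enzymes and cargo to the lysosome were counted in the same fit. Of 32 autophagy genes measured, 15 were lower and 3 higher for the mean of the 4 glucocorticoids against EtoH, with a median log2 change of -0.19 (44.2% of all genes were called). Tecpr1, which helps autophagosomes fuse with lysosomes, fell by 1.18 ± 0.09 (2.27-fold, limma, adjusted p = 1.2e-04), and Sqstm1, the cargo receptor p62, by 1.04 ± 0.14 (adjusted p = 0.0014). The fusion protein Stx17 rose by 0.66 ± 0.07 (adjusted p = 5.4e-04) and the conjugation factor Atg5 by 0.35 ± 0.07 (adjusted p = 0.0083). The other 2 probes of Stx17 gave 0.48 and 0.05, and Atg5 lost its call without EtoH replicate 1. With the array median subtracted 5 were lower and 2 higher, with quantile normalization 20 and 2, and with no filter on dim probes 8 and 1. Without EtoH replicate 1 there were 9 lower and 1 higher, and without EtoH replicate 2 there were 7 and 3. Of all genes 26.4% were called in the first of these settings and 25.9% in the second.

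Of 29 genes for the delivery of enzymes to lysosomes, 13 were lower and 3 higher, with a median of -0.20. Vps11, a core subunit of the tethering complexes of late endosomes, fell by 0.76 ± 0.07 (adjusted p = 3.7e-04) and Plekhm1, an adaptor for lysosome fusion, by 0.74 ± 0.09 (adjusted p = 0.001). The adaptor subunit Ap1s1 rose by 0.55 ± 0.08 (adjusted p = 0.0019) and the sorting receptor Sort1 by 0.54 ± 0.12 (adjusted p = 0.01). On the array median scale 1 was lower and 2 were higher, and with no filter 7 and 2. Without EtoH replicate 1 there were 7 lower and 2 higher, and without EtoH replicate 2 there were 8 and 1, where Sort1 also lost its call.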
